A study of Mus musculus with 27 samples.

Results

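The ETO family and the NCOR-HDAC3 corepressor genes were followed here through mouse erythroleukaemia (MEL) cells, a transformed erythroid progenitor line, in which corepressor genes had been knocked down. The 6 genes were taken by symbol: *Cbfa2t3* (encoding ETO2), *Cbfa2t2* (MTGR1), *Ncor1*, *Hdac3*, *Tbl1xr1* and *Gps2*. All 6 were listed in each of the 5 RNA-Seq tables, which hold between 16465 and 18519 genes, and all 6 passed the filter on low counts in every table.

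ETO family proteins do not bind DNA themselves. They are brought to chromatin by DNA-binding factors such as GATA1 and TAL1 and recruit corepressors, and in erythroid progenitors ETO2 is known for holding back late erythroid genes. NCOR1 is a large scaffold that binds the histone deacetylase HDAC3 and switches on its enzymatic activity, TBL1XR1 is a WD-repeat subunit that ties the complex to histones and to the ubiquitin machinery, and GPS2 is a small subunit that bridges NCOR and the TBL1 proteins.

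The series holds 21 RNA-Seq libraries, and the ChIP-Seq part was used as 1 combined list of 13229 ETO2 and IRF2BP2 sites. The first table holds Eto2 WT (2 libraries), Eto2 KD-sh2 (2) and Eto2 KD-sh3 (2), in which 2 different hairpins target *Cbfa2t3*. The others hold Irf2bp2 WT (2) and KD-sh1 (2), Lsd1 WT (1) and Lsd1 KD (2, targeting *Kdm1a*), Gfi1b WT (2) and KD (2), and MEL non-induced (2) and MEL induced (2). Hairpins came in by lentivirus and *Gfi1b* was targeted by transfected siRNA. The libraries labelled WT are MEL cells given a non-targeting hairpin or siRNA, not untouched cells. All groups are the same transformed line, the labels name no inducing agent and the study's text places the induced cells several days after induction, a single hairpin stands for *Irf2bp2*, and the labels of the Lsd1 KD and Gfi1b KD libraries name no hairpin or siRNA.

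The shRNA libraries held 44519414 to 57684583 counts and the Gfi1b and MEL libraries 9929311 to 19623105, so that values in the shRNA tables carry less counting error. Of 9 erythroid markers, 7 were above 1 CPM in every library (CPM being counts scaled to library size, here by the trimmed mean of M-values, TMM, within a table), with a summed level of 1100 to 4720 CPM. Megakaryocyte markers, which erythroid progenitors share in part, summed to 178 to 1320 CPM, whereas myeloid (0.891 to 3.84 CPM), fibroblast (at most 1.24) and lymphoid (at most 0.51) markers were near 0. The knocked-down genes were checked in their own tables. Under Lsd1 KD, *Kdm1a* RNA was read at 16.9 and 16.3 CPM, against 151.6 CPM in its control, and *Irf2bp2* at 116.0 and 119.7 CPM in the controls and 92.2 and 94.9 CPM under sh1, 20.6% lower (adjusted p = 0.00266, edgeR). In 1 of the 2 libraries labelled Gfi1b KD, *Gfi1b* went against the label. It stood at 122.3 and 145.0 CPM in the controls, 215.8 CPM in the library labelled KD replicate 1 and 76.5 CPM in the library labelled KD replicate 2.

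The ETO2 protein itself was mapped at the gene that encodes it, and the sequences beneath those sites are shown first because the composite E-box/GATA motif is a known element at which GATA1 and TAL1, which carry ETO2, bind together. That motif was searched as CTG, then 6 to 8 bases of any kind, then a GATA word, on both strands. A GATA word is AGATAA, or that word with G as its last base, with T as its first base, or with both. Sequences were read from the mm9 reference genome, with gene positions from GENCODE vM1. *Cbfa2t3* lies at chr8:125152639-125223009 on the minus strand. Of its 5 sites shared by ETO2 and IRF2BP2, 3 held the motif within 100 bp of the site centre, and these are printed 5′ to 3′ on the strand of the motif, which is in capitals, with 20 bases on either side. The first is centred 136 bp upstream of the annotated start of *Cbfa2t3* and the other two are intronic, at 13443 and 32607 bp downstream of that start.
Cbfa2t3, upstream of the start, chr8:125223091-125223147 (plus strand): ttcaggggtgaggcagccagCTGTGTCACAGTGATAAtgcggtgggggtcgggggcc
Cbfa2t3, intron, chr8:125209521-125209576 (minus strand): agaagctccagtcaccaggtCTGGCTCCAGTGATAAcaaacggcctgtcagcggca
Cbfa2t3, intron, chr8:125190359-125190415 (minus strand): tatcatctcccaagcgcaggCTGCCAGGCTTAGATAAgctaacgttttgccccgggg

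Inside the other 5 genes, the single ETO2-bound site with such a motif was at *Gps2* (chr11:69727390-69730093, plus strand), an ETO2-only site centred 2501 bp downstream of its start. Outside them, a shared site downstream of *Hdac3* also held the motif near its centre and is not printed. The printed stretch at *Gps2* spans the end of an intron and the start of a coding exon.
Gps2, chr11:69729889-69729945 (minus strand): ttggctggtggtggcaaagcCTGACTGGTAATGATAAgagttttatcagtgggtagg

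To set a start site with ETO2 beside one without it, the promoter windows of *Cbfa2t3* and *Tbl1xr1* (chr3:21975574-22115516, plus strand) are shown for the 201 bases at the centre of the site nearest the start, each on the strand of its gene. Capitals mark any of 3 words on either strand: the GATA words above, the SP/KLF word CCCGCCC and the ETS word CCGGAAG.
Cbfa2t3, shared site, chr8:125223045-125223245 (minus strand): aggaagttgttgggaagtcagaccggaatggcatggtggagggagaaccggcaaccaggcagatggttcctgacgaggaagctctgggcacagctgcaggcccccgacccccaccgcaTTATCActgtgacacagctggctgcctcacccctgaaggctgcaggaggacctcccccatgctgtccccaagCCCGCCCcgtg
Tbl1xr1, IRF2BP2-only site, chr3:21975229-21975429 (plus strand): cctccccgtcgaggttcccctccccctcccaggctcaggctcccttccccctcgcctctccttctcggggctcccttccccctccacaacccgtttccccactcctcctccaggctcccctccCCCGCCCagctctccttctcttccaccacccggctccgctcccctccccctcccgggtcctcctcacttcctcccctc
The window of *Cbfa2t3* held 1 GATA word, which is the end of the composite motif printed above, and 1 CCCGCCC. The *Tbl1xr1* window held CCCGCCC and no GATA word. For scale, a GATA word was found in 20.1% of the 201 bases upstream of 22380 protein-coding genes, CCCGCCC in 27.6% and CCGGAAG in 7.6%. At site centres, CCCGCCC was present in 3.52% of shared and 10.3% of IRF2BP2-only sites. These are matches of letters and not shown binding.

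The site list gave *Cbfa2t3* 16 sites within 20 kb of the gene, more than for any other member. They comprised 5 shared, 2 ETO2-only and 9 IRF2BP2-only sites, of which 12 had *Cbfa2t3* as their nearest gene. Some of the listed intervals touch or overlap, so that the 16 are not all separate regions. For example, an IRF2BP2-only interval overlaps that of the shared site 13107 bp upstream of the start. Among 22380 protein-coding genes, 9 (0.0402%) had at least as many ETO2-bound sites (7) and 17 (0.076%) at least as many shared sites (5). The counts were not scaled by length, and *Cbfa2t3* (70371 bp) is shorter than *Cbfa2t2* (102876 bp), *Tbl1xr1* (139943 bp) and *Ncor1* (142116 bp), which had 2, 2 and 3 sites. Most of its sites were weak for their class. Only 1 of the 7 ETO2-bound sites, a shared one, and none of the 9 IRF2BP2-only sites reached the median fold enrichment of its class. The 5 shared sites had enrichment over the IgG control, as given in the list for no single library, of 5.667- to 10.53-fold. The strongest of them was centred 1761 bp upstream of the start and the others at 136 and 13107 bp upstream and 13443 and 32607 bp downstream. The 2 ETO2-only sites were weaker, at 3.333-fold in an intron and 5.4-fold downstream of the gene.

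Shared sites were also found at *Ncor1*, *Cbfa2t2* and *Hdac3*. *Ncor1* (chr11:62129928-62272043, minus strand) had 2, centred 6310 bp (5.429-fold) and 8196 bp (13-fold) upstream of its start, beside an IRF2BP2-only site 92 bp upstream (10.5-fold). All 3 centres also lie inside the gene *Pigl* (chr11:62271787-62329795, plus strand), although the start of *Ncor1* is the nearest. Which of the genes these sites act on was not tested. *Cbfa2t2* (chr2:154262217-154365092, plus strand) had a single shared site, in an intron 27589 bp from the start, with an enrichment of 11.75-fold. The shared site near *Hdac3* (chr18:38095498-38114642, minus strand; 11.5-fold) lay downstream of the gene, had *Diap1* as its nearest gene and held the composite motif within 100 bp of its centre.

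*Tbl1xr1* had no ETO2 site within 20 kb and 2 IRF2BP2-only sites, at 245 bp upstream (11-fold) and 1598 bp downstream of its start (4.375-fold). *Gps2* had its ETO2-only site (8.5-fold) and 4 IRF2BP2-only sites nearest to *Neurl4*, *Eif5a* and *Ybx2*. Thus 5 of the 6 genes had an ETO2 site within 20 kb, where 18.1% of all protein-coding genes did. That share was matched for neither gene length nor expression, while the window spans the gene body and so grows with its length. Which of the 6 genes have such a site depends on the rule. With each site given to its single nearest gene within 1 Mb, 5 of the 6 again had one (13.7% of all genes), but *Tbl1xr1* then had 1 ETO2-only and 2 shared sites and *Hdac3* had none. Within 100 kb all 6 had one (41.6%), and with sites at or above the median enrichment of their class 4 of the 6 did (10.2%), *Gps2* and *Tbl1xr1* having none. Of the 12 ETO2 sites, 5 held the composite motif within 100 bp and 11 a GATA word. Across the whole list the composite motif was present at 32.7% of shared, 33.9% of ETO2-only and 6.29% of IRF2BP2-only sites, and a GATA word at 90.4%, 88.7% and 44.5%. The map of sites by distance from the start shows the pile of sites at *Cbfa2t3* beside the sparse pattern at the other genes.

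**Figure D1:**
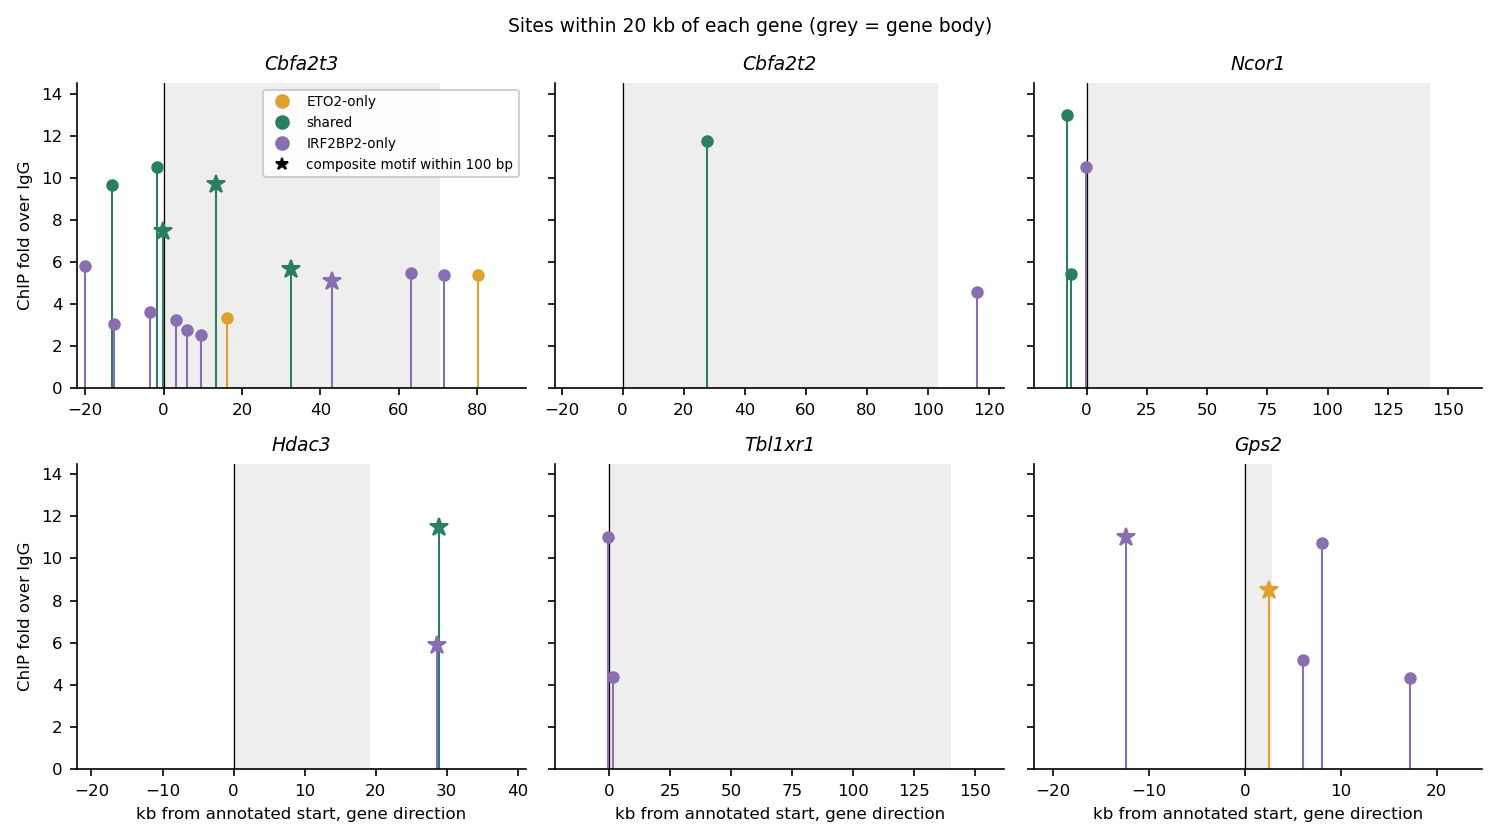
Sites within 20 kb of each gene, by distance from the annotated start in the direction of the gene (x axis, kb) and ChIP fold over IgG (y axis). Colours give the site class, stars mark a composite motif within 100 bp of the site centre and the grey box is the gene body; *Cbfa2t3* shows 16 sites, *Tbl1xr1* 2 and none of these with ETO2.

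In the controls of the shRNA tables the 6 RNAs stood in 1 order when read per length. On the deposited RPKM scale (reads scaled to gene length and library size), in these 5 libraries, *Hdac3* had a median level of 56.4 RPKM (range 52.2 to 59.1) and *Gps2* of 51.2 (45.0 to 59.1). *Cbfa2t3* followed at 44.5 (36.3 to 56.2), *Ncor1* at 30.6 (30.3 to 35.7), *Tbl1xr1* at 19.3 (16.6 to 20.7) and *Cbfa2t2* at 9.07 (8.47 to 9.76). The order was the same in each of them, although the ranges of *Hdac3*, *Gps2* and *Cbfa2t3* overlapped, while *Ncor1*, *Tbl1xr1* and *Cbfa2t2* did not overlap each other.

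The Gfi1b and MEL controls (4 libraries) gave other levels for *Gps2*, at 20.4 RPKM (19.4 to 29.0), and for *Tbl1xr1*, at 31.4 RPKM (28.4 to 34.8). *Cbfa2t3* there stood at 52.9 (32.8 to 61.6), *Hdac3* at 52.4 (48.4 to 56.4), *Ncor1* at 42.6 (35.7 to 49.7) and *Cbfa2t2* at 12.4 (10.3 to 14.0). The order also differed among these 4 libraries, with *Cbfa2t3* highest in 2 of them and *Hdac3* and *Ncor1* in 1 each. The tables were normalised separately and differ in depth and in the way RNA interference was delivered, so that levels between them are side by side only and were not tested. *Cbfa2t2* was the lowest of the 6 in all 21 libraries.

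**Figure D2:**
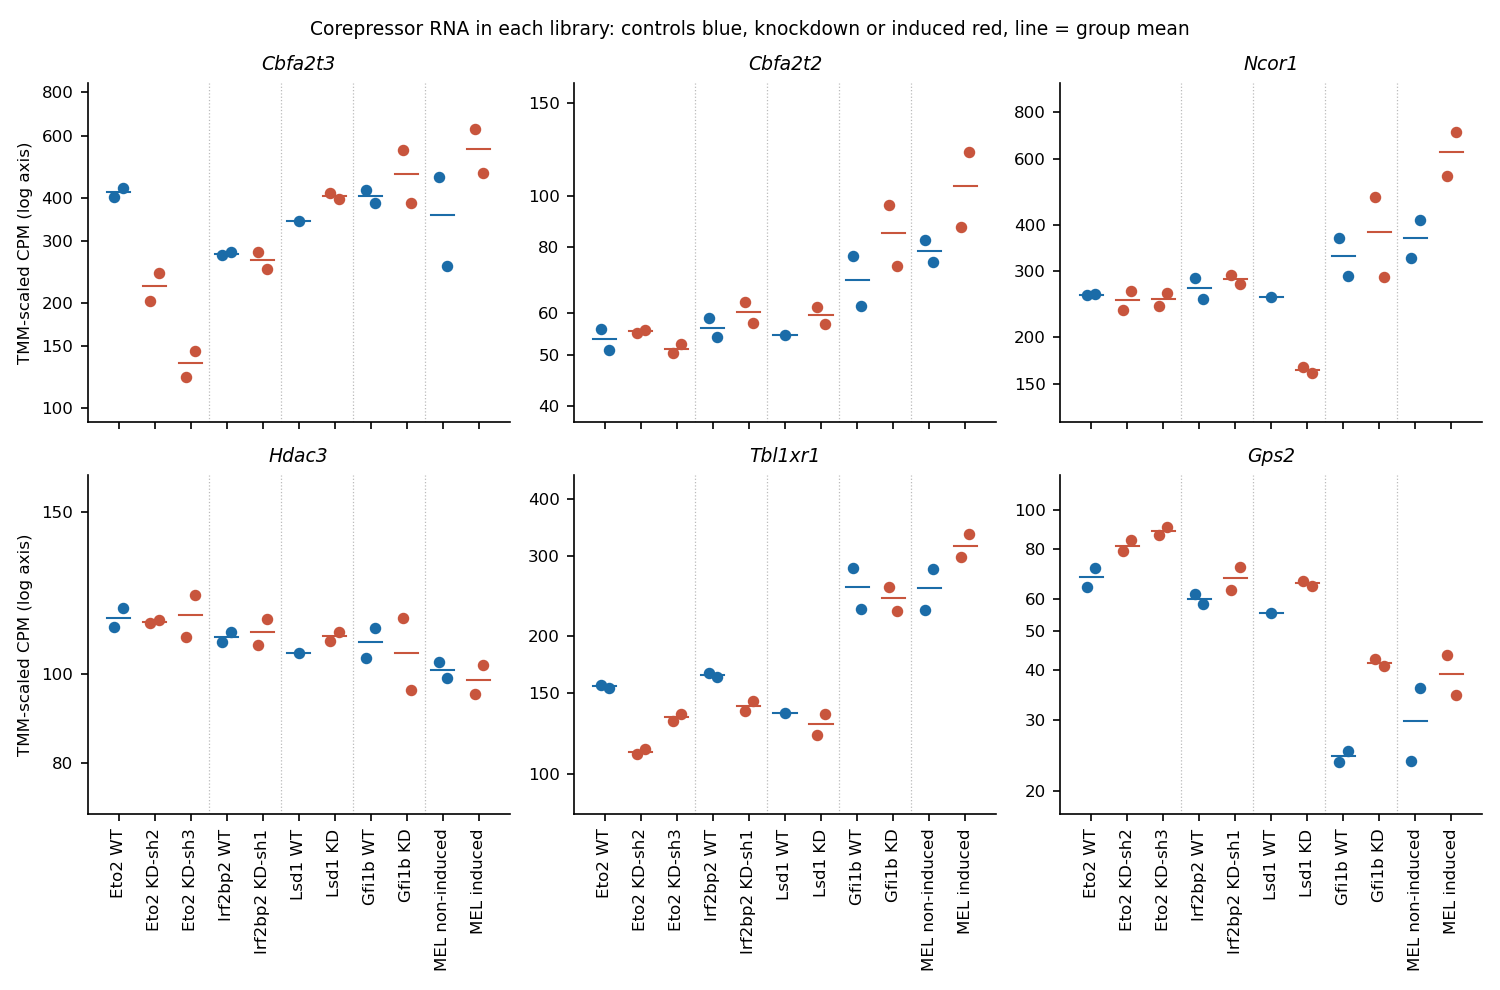
TMM-scaled CPM of each gene (y axis, log scale) in all 21 libraries, grouped on the x axis by table and group; controls are blue, KD or induced libraries red, and lines are group means. *Cbfa2t3* separates by hairpin in the Eto2 libraries, while *Hdac3* stays between 95.0 and 121.9 CPM throughout.

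The 2 hairpins left different amounts of *Cbfa2t3* RNA. The raw counts were 20395 and 24230 in the Eto2 WT libraries, 9991 and 12307 with sh2, and 6040 and 8391 with sh3. After scaling, these were 400.3 and 427.2 CPM in the controls, 202.1 and 243.5 CPM with sh2, and 123.1 and 145.3 CPM with sh3. All 4 KD libraries lay below both controls and both sh3 libraries lay below both sh2 libraries.

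With a fit of the 3 groups together, *Cbfa2t3* was at 0.539-fold of control with sh2 (log2 fold change −0.89, SE 0.10, adjusted p = 7.82e-05 by edgeR's quasi-likelihood test) and at 0.324-fold with sh3 (−1.62, SE 0.10, adjusted p = 7.02e-07). Between the hairpins, sh3 left 0.602-fold of the RNA that sh2 left (log2 −0.73, SE 0.10, adjusted p = 0.000752, an interval of 2 SE from 0.527- to 0.688-fold). With both hairpins pooled as 4 KD libraries against 2 controls, the level was 0.431-fold of control (−1.21, SE 0.22, adjusted p = 0.00954), where the spread includes the gap between hairpins. The pooled call was lost without Eto2 WT replicate 1 (adjusted p = 0.0846) or replicate 2 (adjusted p = 0.0969), whereas in the fits by hairpin *Cbfa2t3* remained past both limits without any single library, with adjusted p at most 0.00255 for sh2, 5.36e-05 for sh3 and 0.00476 between hairpins. A gene was called here when it had an adjusted p of at most 0.05 and a log2 fold change of at least 0.5 in either direction. *Cbfa2t3*, the target itself, was the single member called in the pooled comparison, where 5.74% of 12537 genes were. The same held with sh2 (7.08%), with sh3 (8.77%) and between hairpins (3.71%). Reads of the antisense genes *Gm20388*, which spans all of *Cbfa2t3*, and *Gm10612*, which overlaps its start, or of the pseudogene *Gm15899* inside it could not be told apart from those of *Cbfa2t3*, since strand use in counting is not given in the sources used here. In bulk RNA a lower level in every cell cannot be told apart from a mixture of depleted and undepleted cells.

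The protein of the paralogue *Cbfa2t2* shares conserved domains with ETO2 but lacks the stretch of ETO2 to which the study mapped the binding of IRF2BP2. *Cbfa2t2* itself did not pass either limit with either hairpin. Its raw counts were 2858 and 2900 in the controls, 2728 and 2823 with sh2, and 2475 and 3030 with sh3. The scaled levels were 56.1 and 51.1 CPM, 55.2 and 55.9 CPM, and 50.4 and 52.5 CPM. Each hairpin's libraries overlapped the controls, while both sh3 libraries lay below both sh2 libraries without passing the test between hairpins.

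Against control the log2 difference of *Cbfa2t2* was 0.05 with sh2 (SE 0.06, adjusted p = 0.634, edgeR) and −0.06 with sh3 (SE 0.06, adjusted p = 0.551). The intervals of 2 SE ran from 0.947- to 1.13-fold with sh2 and from 0.878- to 1.05-fold with sh3, so that a rise beyond 1.13-fold lies outside both. The third family member, *Runx1t1*, had at most 4 counts in any of the 21 libraries and was not tested.

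The make-up of the family RNA was then read as the share of *Cbfa2t2*. On the RPKM scale, *Cbfa2t2* made up 15.0% and 13.1% of the summed *Cbfa2t3*, *Cbfa2t2* and *Runx1t1* RNA in the controls, 25.6% and 22.4% with sh2, and 34.0% and 31.3% with sh3. The mean was 14.0% ± 1.34 (SD, n = 2) in controls and 28.3% ± 5.29 (SD, n = 4) in KD, a difference of 14.3 percentage points. *Cbfa2t3* is in the denominator of this share and *Cbfa2t2* was not called, so the share restates the knockdown and is given as a description with no test. All 4 KD libraries lay above both controls, and *Cbfa2t3* remained more abundant than *Cbfa2t2* in each. The ratio of *Cbfa2t3* to *Cbfa2t2* was 5.67 and 6.64 in controls, 2.91 and 3.46 with sh2, and 1.94 and 2.20 with sh3. The summed family RNA was 61.9 and 64.7 RPKM in controls, 35.5 and 41.0 RPKM with sh2, and 24.3 and 27.6 RPKM with sh3.

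**Figure D3:**
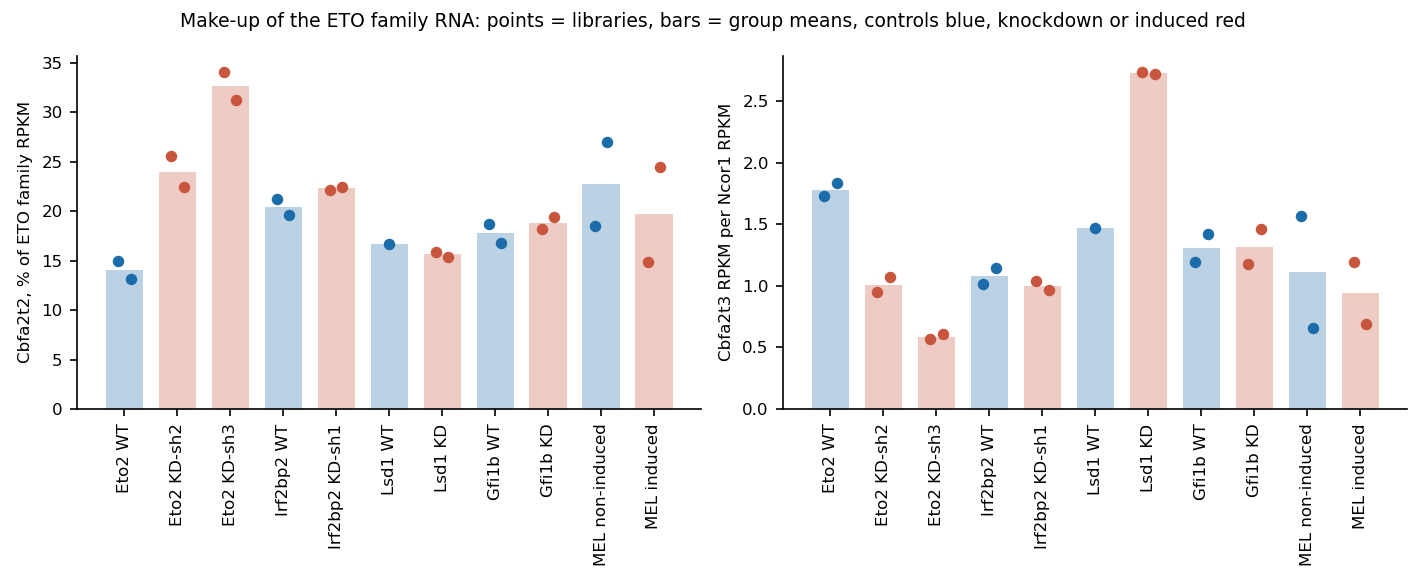
Share of *Cbfa2t2* in the summed RPKM of *Cbfa2t3*, *Cbfa2t2* and *Runx1t1* (left, y axis in percent) and RPKM of *Cbfa2t3* per RPKM of *Ncor1* (right), with libraries as points and group means as bars, controls in blue and KD or induced libraries in red. In the Eto2 libraries the share stands at 13.1% and 15.0% in controls and at 31.3% and 34.0% with sh3, and in Lsd1 KD the ratio to *Ncor1* stands at 2.73 and 2.72.

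The scaffold and the deacetylase passed neither limit with either hairpin. *Ncor1* stood at 259.3 and 261.0 CPM in the controls, 236.5 and 266.4 CPM with sh2, and 241.8 and 263.2 CPM with sh3. *Hdac3* stood at 112.4 and 117.8 CPM, 113.5 and 114.3 CPM, and 109.6 and 121.9 CPM. The groups overlapped for both genes.

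For *Ncor1* the log2 difference was −0.05 with sh2 (SE 0.07, adjusted p = 0.671, edgeR) and −0.04 with sh3 (SE 0.07, adjusted p = 0.695), with intervals of 2 SE from 0.878- to 1.06-fold and from 0.882- to 1.07-fold. For *Hdac3* it was −0.01 (SE 0.06, adjusted p = 0.898) and 0.01 (SE 0.06, adjusted p = 0.94), with intervals from 0.908- to 1.08-fold and from 0.923- to 1.1-fold. Part of the *Ncor1* reads may belong to the overlapping antisense genes *Ttc19* and *Pigl*. Relative to the scaffold RNA, *Cbfa2t3* stood at 1.73 and 1.83 RPKM per RPKM of *Ncor1* in the controls, 0.951 and 1.07 with sh2, and 0.567 and 0.608 with sh3. As *Ncor1* passed neither limit, this ratio restates the knockdown.

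The other 2 subunits passed the limit on adjusted p in opposite directions, and neither passed the fold limit. *Tbl1xr1* stood at 156.3 and 154.3 CPM in the controls, 110.3 and 113.4 CPM with sh2, and 130.4 and 135.3 CPM with sh3. All 4 KD libraries were below both controls, and sh2, the hairpin with more *Cbfa2t3* left, gave the lower *Tbl1xr1* values. Against control the log2 difference was −0.47 with sh2 (0.72-fold, SE 0.05, adjusted p = 9.83e-05, edgeR) and −0.22 with sh3 (0.856-fold, SE 0.05, adjusted p = 0.00885). Between hairpins the level was 0.25 higher on the log2 scale with sh3 (SE 0.05, adjusted p = 0.0103), so that the order of the hairpins was the reverse of that for *Cbfa2t3*. Without Eto2 KD-sh3 replicate 2 this difference between hairpins had an adjusted p of 0.101. With sh3 against control, the adjusted p was 0.0707 and 0.0548 without Eto2 WT replicate 1 and 2 and 0.0784 without KD-sh3 replicate 1.

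*Gps2* stood at 64.3 and 71.6 CPM in the controls, 79.0 and 83.9 CPM with sh2, and 86.5 and 90.4 CPM with sh3. All 4 KD libraries were above both controls. The log2 difference was 0.26 with sh2 (1.2-fold, SE 0.07, adjusted p = 0.0189, edgeR) and 0.38 with sh3 (1.3-fold, SE 0.07, adjusted p = 0.00174). The difference between hairpins, 0.12 (SE 0.07, adjusted p = 0.274), did not pass, with an interval of 2 SE from 0.99- to 1.19-fold. With sh2 the adjusted p became 0.205 without Eto2 WT replicate 1 and 0.0752 without KD-sh2 replicate 2, while with sh3 it stayed at 0.0325 or below.

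In the pooled comparison *Tbl1xr1* had a log2 difference of −0.34 (adjusted p = 0.0374) and *Gps2* of 0.32 (adjusted p = 0.0264, both edgeR), and these ranged from 0.0172 to 0.252 and from 0.0206 to 0.309 when single libraries were left out. By adjusted p alone, 3 of the 6 genes passed in the pooled fit, where 11.4% of all genes did, and the same 3 genes passed with sh2 (20.1%) and sh3 (25.3%). The 3 include *Cbfa2t3*, the target of the hairpins, whose passing follows from the design, and the others are *Tbl1xr1* and *Gps2*. Between hairpins 2 of the 6 passed, *Cbfa2t3* and *Tbl1xr1*, where 13.7% of all genes did. The erythroid markers differed in the same libraries, from a summed level of 1500 and 1510 CPM in the controls to 2100 and 2110 CPM with sh2 and 2490 and 2410 CPM with sh3, and the megakaryocyte markers from 418 and 405 CPM to 594 and 566 CPM and to 482 and 490 CPM. Their part in the differences of *Tbl1xr1* and *Gps2* was not tested.

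Depletion of IRF2BP2, the partner of ETO2, left all 6 genes under the fold limit, in a table where 22.5% of 12329 genes were called. *Cbfa2t3* stood at 274.6 and 278.6 CPM in the controls and 279.5 and 249.8 CPM with KD-sh1. *Cbfa2t2* stood at 58.7 and 54.1 CPM against 63.1 and 57.4 CPM, and *Ncor1* at 288.0 and 253.2 CPM against 293.4 and 277.9 CPM. The groups overlapped for these 3 genes. Their log2 differences were −0.06 (SE 0.09, adjusted p = 0.573, edgeR), 0.10 (SE 0.09, adjusted p = 0.381) and 0.08 (SE 0.09, adjusted p = 0.498).

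*Hdac3* stood at 108.3 and 111.0 CPM in these controls and 107.5 and 114.7 CPM with KD-sh1 (0.02, SE 0.08, adjusted p = 0.867). *Tbl1xr1* stood at 166.4 and 162.5 CPM against 137.4 and 144.4 CPM, both KD libraries being below both controls, a log2 difference of −0.22 (0.857-fold, SE 0.08, adjusted p = 0.0323, edgeR). That is under the fold limit, and by adjusted p alone 47.1% of all genes passed. Leaving out single libraries gave adjusted p values for *Tbl1xr1* from 0.0492 to 0.207, and under 0.05 only without Irf2bp2 WT replicate 2. *Gps2* stood at 61.8 and 58.4 CPM against 63.2 and 72.1 CPM, both KD libraries above both controls (0.17, SE 0.09, adjusted p = 0.121). The share of *Cbfa2t2* in the family RNA was 21.2% and 19.6% against 22.1% and 22.4%. Erythroid markers summed to 1230 and 1320 CPM in these controls and 3390 and 3640 CPM with KD-sh1.

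*Kdm1a* encodes LSD1, a histone demethylase that works with CoREST and GFI1B and that has also been found with the LDB1 complex that holds ETO2, and its KD was read against a single control library, so that no test is given. *Ncor1* had the largest difference of the 6 genes. It stood at 257.0 CPM in the control and 166.8 and 159.9 CPM in the KD libraries, log2 differences of −0.62 and −0.68 and a mean of 0.636-fold. It was the single member with both KD libraries past a log2 difference of 0.5 in one direction, where 22.9% of 12628 genes were (9.8% lower).

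The other 5 genes had log2 differences between −0.15 and 0.27. *Cbfa2t3* stood at 342.9 CPM in the control and 411.9 and 396.3 CPM in KD, and *Cbfa2t2* at 54.5 against 61.6 and 57.3 CPM. *Hdac3* stood at 105.4 against 108.6 and 111.0 CPM, *Tbl1xr1* at 135.6 against 121.8 and 134.9 CPM, and *Gps2* at 55.2 against 66.6 and 64.5 CPM. Both KD libraries were above the control for *Cbfa2t3*, *Cbfa2t2*, *Hdac3* and *Gps2*. As a result the ratio of *Cbfa2t3* to *Ncor1* on the RPKM scale went from 1.47 to 2.73 and 2.72. The fall of this ratio in the Eto2 KD libraries restates the knockdown and is not set against this rise. The share of *Cbfa2t2* in the family was 16.7% in the control and 15.8% and 15.4% in KD. Erythroid markers summed to 1580 CPM in the control and 1100 and 1110 CPM in KD.

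In the Gfi1b table none of 11190 genes was called by edgeR (0%), 784 (7.01%) had an unadjusted p under 0.05 and DESeq2 called 59. *Gps2* had the largest difference of the 6. It stood at 23.6 and 25.1 CPM in the controls and at 42.6 and 40.8 CPM in the libraries labelled KD, both above both controls. The log2 difference was 0.77 (SE 0.23, adjusted p = 0.69, edgeR; unadjusted p = 0.0125). The 2 libraries labelled KD gave like values for *Gps2*, although they differed for *Gfi1b* itself. Without KD replicate 1 the adjusted p was 0.0466, and without KD replicate 2 it was 0.00402, with the lone library assumed to vary like the controls.

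*Ncor1* followed the split between these 2 libraries, at 369.5 and 291.7 CPM in the controls, 475.0 CPM in the library labelled KD replicate 1 and 289.6 CPM in the library labelled KD replicate 2 (0.21, SE 0.28, adjusted p = 0.867). Without KD replicate 2 the difference was 0.50 (adjusted p = 0.00939). *Cbfa2t3* likewise stood at 420.4 and 385.6 CPM, then 545.6 and 386.5 CPM (0.21, SE 0.23, adjusted p = 0.832), and *Cbfa2t2* at 76.9 and 61.9 CPM, then 96.1 and 73.8 CPM (0.29, SE 0.24, adjusted p = 0.78). *Tbl1xr1* (282.6 and 229.0 CPM, then 256.3 and 227.4 CPM; adjusted p = 0.94) and *Hdac3* (104.1 and 112.2 CPM, then 114.9 and 96.0 CPM; adjusted p = 0.974) overlapped between groups. The library labelled KD replicate 1 held erythroid markers at 3500 CPM and megakaryocyte markers at 905 CPM, against 1270 to 1380 CPM and 178 to 292 CPM in the other 3 libraries. Their part in these differences was not tested.

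Of the replicated comparisons, induction of MEL cells, which starts their terminal erythroid maturation, was the one in which *Ncor1* RNA was called higher. It stood at 325.8 and 411.4 CPM in MEL non-induced and 539.6 and 710.4 CPM in MEL induced, with both induced libraries above both others. The log2 fold change was 0.76 (1.7-fold, SE 0.25, adjusted p = 0.036, edgeR), in a table where 27.2% of 11713 genes were called. The call was lost without non-induced replicate 1 (adjusted p = 0.184), non-induced replicate 2 (0.0522) or induced replicate 2 (0.305). *Ncor1* was the single member called.

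*Cbfa2t3* stood at 457.6 and 255.6 CPM in MEL non-induced and 629.9 and 470.6 CPM in MEL induced, both induced libraries being above both others (0.63, SE 0.29, adjusted p = 0.124). The replicates of each group differed widely. Without single libraries the log2 fold change ran from 0.27 to 1.09, the highest being without non-induced replicate 1. With the replicate number as a block it was 0.67 (adjusted p = 0.0192). *Cbfa2t2* stood at 82.6 and 75.1 CPM against 87.3 and 121.1 CPM (0.40, SE 0.25, adjusted p = 0.249) and *Tbl1xr1* at 228.5 and 280.8 CPM against 297.3 and 333.9 CPM (0.31, SE 0.24, adjusted p = 0.359). Both induced libraries were again above both others for these 2 genes without passing the test. *Hdac3* stood at 103.0 and 98.9 CPM against 95.0 and 102.1 CPM (−0.03, SE 0.23, adjusted p = 0.931), and *Gps2* at 23.7 and 36.1 CPM against 43.4 and 34.5 CPM (0.39, SE 0.29, adjusted p = 0.353), with groups that overlapped. Without single libraries the log2 differences ran from 0.16 to 0.61 for *Cbfa2t2*, from 0.155 to 0.464 for *Tbl1xr1* and from 0.098 to 0.717 for *Gps2*. Erythroid markers summed to 1940 and 1880 CPM before and 4720 and 4170 CPM after induction, and megakaryocyte markers to 525 and 383 CPM and 1320 and 1190 CPM.

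**Figure D4:**
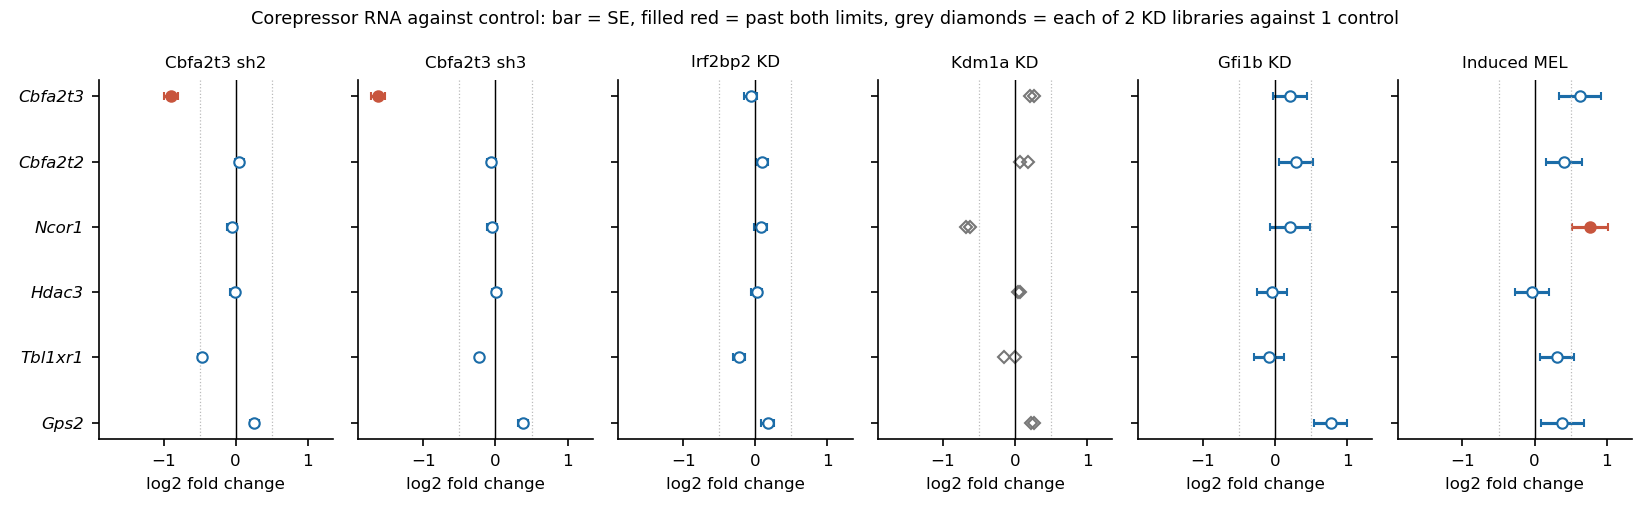
Log2 fold change against control (x axis) of each gene (y axis) in 6 comparisons; points are edgeR estimates with bars of 1 SE, filled red where both limits were passed, dotted lines mark the limit of 0.5, and grey diamonds are the 2 Lsd1 KD libraries each against the single control. Filled points are *Cbfa2t3* with sh2 (−0.89) and sh3 (−1.62) and *Ncor1* on induction (0.76), and *Hdac3* lies between −0.04 and 0.07 in every panel.

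Over all 21 libraries *Cbfa2t3* spanned a 5.18-fold range on the RPKM scale (16 to 83.1) and *Cbfa2t2* a 2.33-fold range (8.27 to 19.3). The genes most like each member were found by Pearson correlation of log2 CPM, centred on the controls of each table, among 11052 genes over the 21 libraries, which share tables and controls. These are descriptions. For *Cbfa2t3* they were *Tmbim6* (r = 0.943), *Trerf1* (0.929) and *Dab2ip* (0.928), and for *Cbfa2t2* they were *Lats1* (0.927), *Dctn4* (0.925) and *Rnf114* (0.916). *Ncor1* was followed most closely by *Zbtb44* (0.979), *Wnk1* (0.97) and *B230219D22Rik* (0.968), and *Tbl1xr1* by *Man1a2* (0.898) and *Med13* (0.892). For *Gps2* the closest were *Samd4* (0.874), *Fstl1* (0.869) and *Plcl2* (0.865). *Hdac3*, which varied least, had no gene above *9330159M07Rik* at 0.735.

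Further genes of the same complexes were read from a list. *Runx1t1* and *Tbl1x* were too low to test, *Tbl1x* being listed in the Gfi1b table alone with at most 2 counts. *Coro2a*, which encodes an actin-binding subunit of the NCOR complex, followed the order of the hairpins. It stood at 13.1 and 14.4 CPM in the Eto2 WT libraries, 7.22 and 9.66 CPM with sh2, and 4.95 and 5.40 CPM with sh3. The 3 groups did not overlap. *Coro2a* fell by 0.70 on the log2 scale with sh2 (SE 0.13, adjusted p = 0.00281, edgeR) and by 1.41 with sh3 (SE 0.13, adjusted p = 2.46e-05), and was lower with sh3 than with sh2 (−0.70, SE 0.14, adjusted p = 0.00738).

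In the other tables *Coro2a* went both ways. It stood at 11.6 and 12.1 CPM against 9.15 and 7.77 CPM with Irf2bp2 KD-sh1 (−0.48, SE 0.13, adjusted p = 0.00435, under the fold limit), and fell on induction from 35.5 and 34.1 CPM to 14.8 and 9.64 CPM (−1.51, SE 0.32, adjusted p = 0.00382). In Lsd1 KD it stood higher, at 27.3 and 22.2 CPM against 15.2 CPM in the control. In the Gfi1b table the difference was −0.16 (adjusted p = 0.945).

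Of 10 other histone deacetylases 9 were tested, with a median log2 difference of −0.11 in the pooled Eto2 KD beside 0.00 over all genes. *Hdac7*, a class IIa deacetylase that depends on NCOR-bound HDAC3 for activity, was called lower with sh2 (−0.54, adjusted p = 0.000353), with sh3 (−0.65, adjusted p = 6.74e-05), with Irf2bp2 KD-sh1 (−1.22, SE 0.09, adjusted p = 1.31e-08) and on induction (−0.76, adjusted p = 0.0399, all edgeR). With Irf2bp2 KD-sh1 this was a fall from 430.4 and 442.5 CPM to 199.8 and 175.4 CPM. *Hdac11* was called higher with sh2 (0.65, SE 0.08, adjusted p = 0.000278). It passed the adjusted p under the fold limit with sh3 (0.30, adjusted p = 0.0224), in the pooled fit (0.49, adjusted p = 0.0492) and between hairpins (−0.35, adjusted p = 0.0175, all edgeR). In Lsd1 KD 2 of the 9 were past the limit higher and 2 lower, beside 22.9% of all genes in either direction, with *Hdac2* at 227.6 CPM in the control and 85.9 and 93.3 CPM in KD and *Hdac5*, a class IIa deacetylase, at 40.6 CPM against 87.1 and 83.2 CPM.

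Among 16 DNA-binding partners of the NCOR corepressors, such as nuclear receptors, none of the 13 tested was called in the pooled Eto2 KD, where 5.74% of all genes were. With Irf2bp2 KD-sh1 2 rose and 2 fell of the 13, beside 22.5% called among all genes, with *Nr1h2* (the oxysterol receptor LXR beta) at 0.82 (adjusted p = 1.15e-06, edgeR) and *Nr1d2* (the haem receptor REV-ERB beta) at −0.89 (adjusted p = 8.42e-06). On induction 4 of the 13 rose and none fell, where 27.2% of all genes were called, with *Nr1d2* at 1.44 (adjusted p = 0.00262), *Nr1h2* at 1.13 (adjusted p = 0.00561) and *Rxra* (the shared partner of many nuclear receptors) at 1.10 (adjusted p = 0.00781). The median over the 13 was 0.39 on induction beside −0.02 over all genes. In Lsd1 KD 4 of 14 stood higher and 1 lower past the limit (22.9% of all genes), including *Nr1d2* (11.2 CPM against 21.9 and 22.6 CPM) and *Zbtb16*, the latter on only 4 counts against 15 and 7.

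The SIN3 complex, which uses other deacetylases than HDAC3, had no gene of 10 called in the pooled Eto2 KD (5.74% of all genes), with a median of 0.01. With Irf2bp2 KD-sh1 2 of the 10 fell, near the share of all genes called (22.5%), *Arid4a* by 0.79 (SE 0.10, adjusted p = 5.54e-06, edgeR). On induction 1 rose and 2 fell, again near the share of all genes called (27.2%), with *Sap30* going from 41.1 and 44.3 CPM to 12.3 and 12.7 CPM (−1.77, SE 0.29, adjusted p = 0.000785). None of the 4 lists had a gene called in the Gfi1b table.

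**Figure D5:**
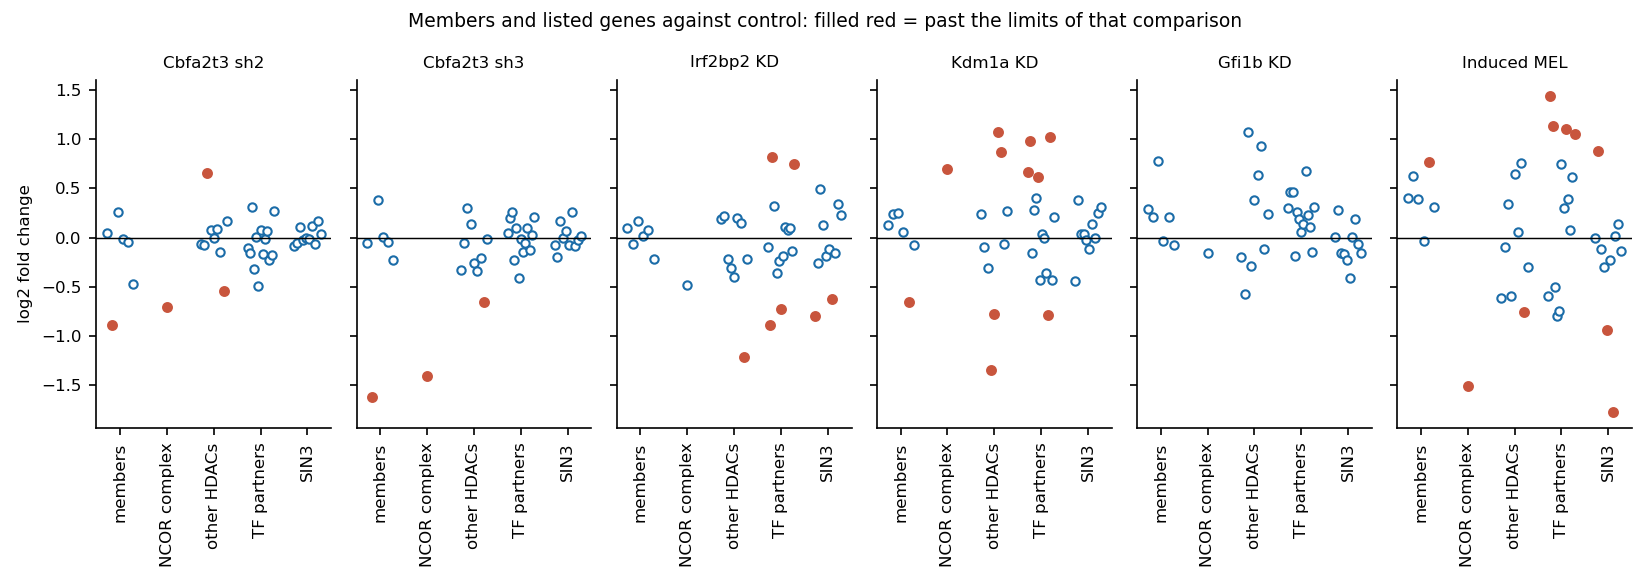
Log2 fold change (y axis) of the 6 members and of the tested genes reported here from 4 lists (x axis) in 6 comparisons, each point being 1 gene and filled red where the limits of that comparison were passed. In the Eto2 panels *Cbfa2t3*, *Coro2a* and *Hdac7* are the points passed lower with both hairpins, and in the Gfi1b panel no point is filled.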

How the data were processed

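RNA-Seq reads from MEL cells had been aligned by the authors to mm9 with TopHat2 and Bowtie and summarised per RefSeq gene. The deposited tables give raw counts and RPKM per library, the latter scaled to gene length and library size by the authors. Strand use in counting is not given in the sources used here. The deposited site list gives fold enrichment, a ratio of ChIP over IgG, and a p-value per consensus site, which the authors took from a negative binomial model and adjusted by Benjamini-Hochberg. The 3 site classes (ETO2-only, shared, IRF2BP2-only) were assigned to its codes by the class sizes in the study's methods, and 4 per-sample columns were not used. The authors' own fold changes and p-values in the tables were not used.

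Within each table, counts were filtered with filterByExpr, scaled by TMM and tested with edgeR 4.0.16 (glmQLFit and glmQLFTest, R 4.3.3), with Benjamini-Hochberg adjustment over all genes tested and limits of 0.05 on adjusted p and 0.5 on the log2 fold change. The hairpins sh2 and sh3 were each compared with control in a fit of 3 groups, and pooled in a fit of 2. The Kdm1a table has 1 control and was described by log2 CPM differences (prior count 2). The share of *Cbfa2t2* in the family RNA is described without the permutation test first chosen for it, since the knocked-down gene is in its denominator. DESeq2 1.42.0, other filters and scalings, a replicate block and the loss of each library were alternatives. A fit missing 1 of 2 libraries of a group assumes that the remaining library varies like the others. Steps were tested on simulated data. Replicates of a group differed by more than counting noise (chi-square per degree of freedom 8.6 to 102) and none was a duplicate. The study's methods call the replicates independent biological samples, without saying how they were grown, and p-values measure the spread between these libraries.

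Named genes were the 6 members, the knocked-down genes in their own tables, a list of complex genes, and of 3 longer lists up to 4 genes per comparison with the largest changes past the limits. Genes nearest to sites were named after their values were seen. A few genes that these rules name are not reported here. Members and lists were chosen with earlier results of these data known.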

Additional observations from a re-analysis of the deposited data

Results flagged for a closer look

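The response to the 2 *Cbfa2t3* hairpins differed for 2 of the 6 genes by a direct test of sh3 against sh2, on adjusted p alone, which 13.7% of all genes passed. The 2 include *Cbfa2t3*, the target of both hairpins. *Cbfa2t3* had a log2 fold change of −0.731 (edgeR's quasi-likelihood test, adjusted p = 0.000752), both sh3 libraries being below both sh2 libraries. *Tbl1xr1* had one of 0.249 (adjusted p = 0.0103), both sh3 libraries being above both sh2 libraries, and this is under the fold limit used for calls. No cause of the *Tbl1xr1* difference was tested.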

How the results depend on the processing

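Of 287 values under settings that kept every library, 277 stayed the same. The values are those of the 6 genes and the share of *Cbfa2t2* in the family RNA in each table. Staying the same meant keeping direction and side of the limits in the tested comparisons, and keeping the sign for the share. In Lsd1 KD it meant staying within the SD between the KD libraries. Of the other 10, *Ncor1* between hairpins turned to −7.56e-05 with at least 10 counts in every library, *Cbfa2t3* on induction changed under the block given below, and 8 were *Tbl1xr1* or *Gps2* past the adjusted p once the fold limit was dropped. Without the fold limit the counts of called genes rose from 720 to 1423 (pooled Eto2 KD), 887 to 2520 (sh2), 1100 to 3178 (sh3), 465 to 1720 (between hairpins) and 2778 to 5810 (Irf2bp2 KD), by construction. In the Gfi1b table DESeq2 called 59 genes and edgeR without a filter on low counts 411, in place of 0; the cause was not tested.

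With the replicate number as a block the counts were 632, 977, 1201, 581 and 2834, and 0 in the Gfi1b table and 3916 instead of 3187 in the MEL table. Only *Cbfa2t3* on induction changed its call (0.67, adjusted p = 0.0192, edgeR). Deviations of like-numbered libraries correlated at 0.118 to 0.252 in the Eto2 table, 0.196 in MEL, 0.0251 in Irf2bp2 and 0.00153 in Gfi1b, with 2 numbers each, and the numbers were not taken as pairs.

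Leaving out 1 library at a time gave 279 to 797 calls in the pooled Eto2 KD (lowest without Eto2 WT replicate 1, and 360 without replicate 2), 0 to 3148 in Gfi1b (396 without KD replicate 1, 3148 without KD replicate 2) and 1522 to 3369 in MEL (lowest without non-induced replicate 2, 1626 without replicate 1, 1772 without induced replicate 2). The log2 differences that changed sign ranged in the pooled Eto2 KD from −0.069 to 0.062 (*Cbfa2t2*) and −0.040 to 0.031 (*Hdac3*), with sh2 from −0.015 to 0.12 (*Cbfa2t2*), −0.14 to 0.034 (*Ncor1*) and −0.051 to 0.020 (*Hdac3*), with sh3 from −0.12 to 0.0060 (*Cbfa2t2*), −0.11 to 0.016 (*Ncor1*) and −0.075 to 0.082 (*Hdac3*) and between hairpins from −0.077 to 0.095 (*Ncor1*) and −0.057 to 0.099 (*Hdac3*). Further ones ranged in Irf2bp2 KD from −0.14 to 0.018 (*Cbfa2t3*), −0.0064 to 0.18 (*Ncor1*) and −0.027 to 0.073 (*Hdac3*), in Gfi1b from −0.063 to 0.42 (*Cbfa2t3*), −0.19 to 0.50 (*Ncor1*), −0.17 to 0.069 (*Hdac3*) and −0.24 to 0.073 (*Tbl1xr1*) and in MEL from −0.075 to 0.0080 (*Hdac3*). The share of *Cbfa2t2* in the family RNA differed in MEL by −3.09 percentage points with all libraries and by −7.89 to 1.71 points without 1. The Gfi1b and MEL libraries are shallower, and *Zbtb16* and *Runx1t1* had few counts in all tables.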
